A study of Mus musculus with 10 samples.

Results

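Pck1, G6pc, Fbp1, Slc37a4, Khk, Tkfc, Mlxipl and Gk encode enzymes, a transporter and a transcription factor of glucose production and of fructose and glycerol use. These 8 genes, of 54838 listed in each library, were chosen by name after the comparison of cKO and WT crypts had been seen, and the strong and variable rise of Pck1 was part of the reason. Their levels and fold changes between the genotypes are therefore a description and carry no test here. All 8 passed the filter on low counts, among 14719 genes that were tested.

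Gluconeogenesis gets round the irreversible steps of glycolysis with enzymes of its own: Pck1 makes phosphoenolpyruvate from oxaloacetate, Fbp1 removes a phosphate from fructose bisphosphate, and G6pc, fed by the transporter Slc37a4, releases free glucose inside the endoplasmic reticulum. In fructolysis ketohexokinase (Khk) phosphorylates fructose and Tkfc phosphorylates the glyceraldehyde that is later formed from it, while glycerol kinase (Gk) brings glycerol into the same pool of small phosphates. The small intestine takes up dietary fructose and converts part of it to glucose and organic acids, and it holds the gluconeogenic enzymes that liver and kidney also use. Mlxipl encodes ChREBP, a sugar-sensing transcription factor with fructolytic and lipogenic genes among its known targets.

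The libraries come from crypts of the jejunum, 1 per animal, of 5 WT mice and 5 mice lacking Arid3a in the epithelium (cKO). The cKO mice were VillinCre-ERT2 +/-; Arid3a fl/fl, in which the Villin promoter restricts the tamoxifen-dependent recombinase to intestinal epithelium, so stromal and immune cells kept the gene. Both genotypes received tamoxifen on 3 consecutive days and were culled 1 month after it began. The alleles carried by the WT mice, and the age, sex and feeding state of either group, were not given in the sources used here, and the identifiers of the animals have a different prefix in each genotype. What the prefix stands for was not given, so it cannot be told apart from genotype.

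Libraries held 27050455 to 31053622 expected counts, the RSEM estimate of the reads of all genes, and levels are given as CPM, counts scaled to a common library size after TMM normalization, where 1 CPM stood for 26.4 to 29.9 counts. Arid3a, the targeted gene, had 55 to 81 counts in WT and 9 to 31 in cKO libraries without overlap, a log2 fold change of -1.84 ± 0.32 (SE, as after every log2 fold change here, edgeR quasi-likelihood test with Benjamini-Hochberg adjustment, adjusted p = 0.00204). Over all tested genes 2298 were higher in cKO (15.6%) and 1869 lower (12.7%). The crypt markers Olfm4 and Lgr5 were present in every library, at 3314 to 7113 and 27.5 to 70.4 CPM. The sum of 12 markers of differentiated enterocytes nevertheless ran from 1807 to 8441 CPM in WT and from 9846 to 18308 CPM in cKO, without overlap. Since these are bulk samples, more cells of a type and more RNA per cell cannot be told apart.

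The promoters of Pck1, G6pc and Khk are shown as examples. Pck1 and G6pc bracket the path from oxaloacetate to glucose, and Khk opens fructolysis. Pck1, G6pc and Khk are also the only genes of the set in which the letters GTTAAT were found, so nothing is read from their sharing them. Each run is the 250 bases before the RefSeq start of transcription, on the plus strand of GRCm38.p6, at chr2:173152823-173153072 for Pck1, chr11:101367466-101367715 for G6pc and chr5:30921309-30921558 for Khk. Capitals mark matches to 4 of the motifs searched.
Pck1: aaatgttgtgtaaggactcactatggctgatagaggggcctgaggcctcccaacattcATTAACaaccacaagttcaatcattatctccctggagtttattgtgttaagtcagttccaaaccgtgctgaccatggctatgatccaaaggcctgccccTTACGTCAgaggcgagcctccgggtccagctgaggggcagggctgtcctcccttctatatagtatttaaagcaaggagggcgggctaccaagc
G6pc: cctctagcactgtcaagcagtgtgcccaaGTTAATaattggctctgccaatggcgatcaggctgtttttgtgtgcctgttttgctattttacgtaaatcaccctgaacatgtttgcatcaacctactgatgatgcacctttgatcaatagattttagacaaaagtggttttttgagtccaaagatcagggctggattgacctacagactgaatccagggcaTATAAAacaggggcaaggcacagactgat
Khk: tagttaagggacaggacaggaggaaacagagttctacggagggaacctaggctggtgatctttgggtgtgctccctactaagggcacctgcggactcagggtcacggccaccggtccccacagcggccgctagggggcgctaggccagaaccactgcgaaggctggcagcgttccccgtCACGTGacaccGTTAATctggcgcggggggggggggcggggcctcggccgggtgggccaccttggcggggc

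The 8 genes have 11 RefSeq windows of that length among 32851 in the table, and both strands were searched for 7 motifs. In the Pck1 promoter the cAMP response element TTACGTCA began 93 bases before the start, and 0.447% of all windows hold it. The letters GTTAAT, the core of an HNF1 site, lay 221 bases before the start of G6pc and 60 before that of Khk, and on the other strand, printed as ATTAAC, 192 before that of Pck1. They occur in 6.43% of windows. The E-box CACGTG, the core to which ChREBP and many other factors bind, was found 71 bases before the start of Khk, 58 before that of Gk and 98 before that of Mlxipl, against 6.02% of windows. TATAAA stood 29 bases before the start of G6pc and 32 before a start of Slc37a4, which has 3 windows (12.4% of all windows hold it). CAAAGTTCA, a form of the HNF4 site, stood 189 before the start of Tkfc (0.335%). All these starts are those of RefSeq. For Pck1, G6pc, Khk, Slc37a4 and Tkfc they lie inside the gene bounds given below. The windows of Slc37a4 and Tkfc with these matches lie wholly inside those bounds. The TATAAA of G6pc and the CACGTG and GTTAAT of Khk also fall inside them. TGACGTCA and CAAAGTCCA were not among the letters of these 11 windows. No motif was shared by all 8 genes, and a match describes letters only.

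Of the 8 genes, 6 were past the threshold as higher in cKO and 0 as lower, beside 15.6% and 12.7% of all tested genes, and 5 did not overlap between the genotypes, beside 19.6% of all genes. The choice of the genes used this contrast, so nothing is read from these counts.

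**Figure D1:**
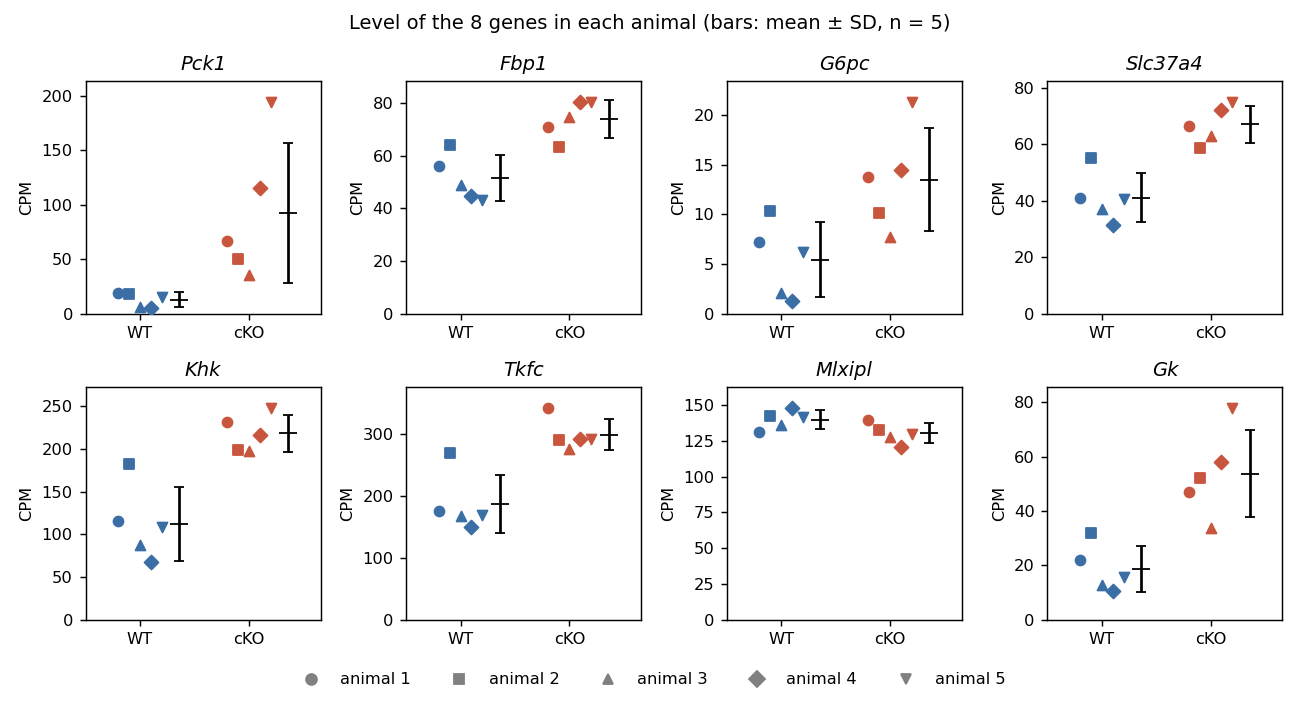
Level of each of the 8 genes in CPM (linear axis from 0) in 5 WT and 5 cKO animals, with marker shapes for animal numbers, which do not pair animals across genotypes, and black bars for mean ± SD. Pck1, Slc37a4, Khk, Tkfc and Gk do not overlap between the genotypes, G6pc and Fbp1 overlap, and Mlxipl stays between 121 and 148 CPM.

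Pck1 (chromosome 2, 173153048 to 173159273, plus strand, GRCm38) encodes the cytosolic carboxykinase that commits carbon to gluconeogenesis. Its level in WT animals 1 to 5 was 19.3, 18.3, 6.28, 5.09 and 15.2 CPM, and in cKO animals 1 to 5 it was 66.3, 49.7, 35.6, 115 and 194 CPM. Every cKO animal was above every WT animal, yet the cKO animals themselves differed by 5.45-fold from lowest to highest and the WT animals by 3.79-fold. With 5 animals each, the means and SD were 12.8 ± 6.7 CPM in WT and 92.1 ± 64.3 CPM in cKO, and the log2 fold change was 2.84 ± 0.58. In 20 alternative analyses of the same libraries the log2 fold change lay between 2.37 and 3.05, which is again a description.

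G6pc (chromosome 11, 101367561 to 101377903, plus strand) encodes the catalytic subunit of glucose-6-phosphatase, the last step of glucose release. It was the scarcest of the 8 genes, with 7.21, 10.4, 2.04, 1.24 and 6.22 CPM in WT animals 1 to 5 and 13.8, 10.2, 7.69, 14.5 and 21.3 CPM in cKO animals 1 to 5. WT animal 2 lay above cKO animals 2 and 3, so the groups overlapped. The log2 fold change was 1.32 ± 0.54 and not past the threshold. Without WT animal 2 it was 1.70 and past the threshold. In the 20 alternatives it lay between 0.77 and 1.70 and was past the threshold in 2. With single animals left out the lowest value was 1.06.

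Slc37a4 (chromosome 9, 44396852 to 44402968, plus strand), the glucose-6-phosphate transporter that works with G6pc, had 41.0, 55.0, 37.0, 31.5 and 40.4 CPM in WT and 66.4, 58.7, 62.9, 72.0 and 74.9 CPM in cKO. The closest animals of the groups were WT 2 and cKO 2. Its log2 fold change was 0.71 ± 0.13, smaller but more even between animals than that of Pck1 or G6pc. Fbp1 (chromosome 13, 62864753 to 62888282, minus strand), the bisphosphatase between them, had 56.2, 64.2, 49.0, 44.9 and 43.4 CPM in WT and 70.8, 63.2, 74.7, 80.3 and 80.3 CPM in cKO. The groups touched, since cKO animal 2 was below WT animal 2. Its log2 fold change was 0.52 ± 0.11, the smallest of the 6 that were past the threshold.

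In fructolysis, Khk (chromosome 5, 30921431 to 30931248, plus strand) and Tkfc (chromosome 19, 10587791 to 10605654, minus strand) were the most abundant of the 8 genes per length. Khk had 116, 182, 87.4, 67.4 and 109 CPM in WT and 231, 199, 197, 217 and 247 CPM in cKO. The cKO animals lay within a 1.25-fold range and the WT animals within a 2.70-fold range. The log2 fold change of Khk was 0.96 ± 0.23. Tkfc had 176, 269, 169, 150 and 170 CPM in WT and 342, 290, 277, 292 and 293 CPM in cKO. Only WT animal 2 came near the cKO animals, and the log2 fold change of Tkfc was 0.68 ± 0.14. A stretch of 121 bases of Tkfc transcripts is 99.2% identical to Cyb561a3, a neighbour on the opposite strand with 189 to 269 counts per library, against 4476 to 10143 counts for Tkfc.

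Gk (X chromosome, 85701937 to 85776819, minus strand) phosphorylates glycerol. It had 22.0, 31.8, 12.9, 10.6 and 15.7 CPM in WT and 47.2, 52.2, 33.8, 58.0 and 77.8 CPM in cKO, with WT 2 and cKO 3 as the nearest animals. Its log2 fold change of 1.53 ± 0.32 was exceeded among the 8 genes by that of Pck1 alone. Mlxipl (chromosome 5, 135089890 to 135138382, plus strand), the regulator, went another way, with 130.9 to 147.6 CPM in WT and 120.7 to 139.6 CPM in cKO. The groups overlapped, and the log2 fold change was -0.10 ± 0.06 and not past the threshold. It was negative in each of the 20 alternatives and past the threshold in 2 of them, with library size as the only scaling (-0.23) and on log2(TPM + 1) (-0.25), scalings under which the median of all genes was also lower, at -0.16 and -0.10 against -0.03.

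Levels were compared between genes only in TPM, the deposited measure per transcript length. In WT the order of means was Khk (139 ± 45 TPM), Tkfc (111 ± 26), Mlxipl (64.8 ± 5.9), Fbp1 (51.0 ± 7.8), Slc37a4 (27.1 ± 5.1), Gk (7.43 ± 3.18), Pck1 (6.47 ± 3.24) and G6pc (2.96 ± 2.03). Neighbours whose ranges overlapped in WT were Khk and Tkfc, Mlxipl and Fbp1, Gk and Pck1, and Pck1 and G6pc. In cKO, Khk (233 ± 23 TPM), Tkfc (167 ± 17), Fbp1 (75.7 ± 9.1) and Mlxipl (54.4 ± 1.8) led without overlapping ranges among them. Pck1 followed at 43.8 ± 30.1 TPM, having moved from rank 7 to rank 5, and its range of 16.6 to 89.4 TPM overlapped those of both Mlxipl and Slc37a4 (42.1 ± 5.0). Gk (18.7 ± 5.5 TPM) and G6pc (7.04 ± 2.68) stood last. Pck1 was thus scarcer than Slc37a4 in every WT animal, while in cKO the order of that pair varied by animal, with Pck1 the higher in 2 of 5.

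The 8 genes also differed in their spread. The SD of log2(CPM + 0.5) within a genotype, pooled over both, was 0.92 for Pck1, whose spread had been seen when the genes were chosen and is given as a description. Set against genes of like abundance, G6pc (0.88) was at percentile 98.6, Gk (0.53) at 98.4 and Khk (0.39) at 96.5. Slc37a4 (0.23), Tkfc (0.24) and Fbp1 (0.19) lay at percentiles 82.7 to 90.04. Mlxipl, with 0.07, was at percentile 10.2. For Khk the SD was 0.53 in WT and 0.14 in cKO, for G6pc 1.13 and 0.53, for Tkfc 0.32 and 0.12, and for Slc37a4 0.29 and 0.14, so the WT animals were the less even group for these genes. For Pck1 it was 0.86 in WT and 0.97 in cKO.

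Animals that were high for 1 of these genes tended to be high for the others. To look at this without the genotype contrast, each animal's log2(CPM + 0.5) was taken as a deviation from the mean of its own genotype, and the deviations of 2 genes were correlated over the 10 animals. WT animal 2 was the highest of its group for 6 of the 8 genes and WT animal 4 the lowest for 6, while cKO animal 5 was the highest of its group for 5 and cKO animal 3 the lowest for 5.

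**Figure D2:**
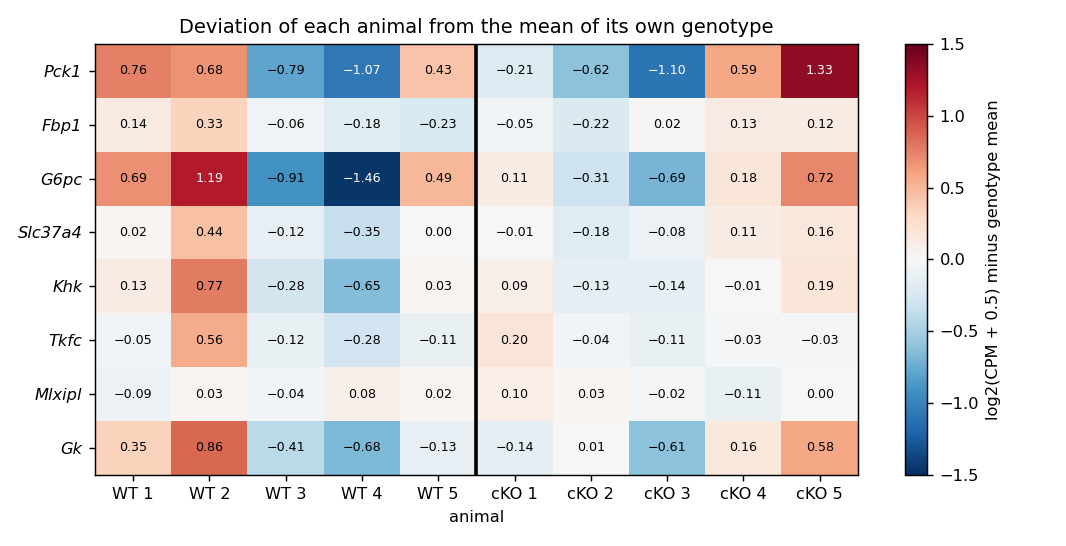
Deviation of each animal (columns) from the mean of its own genotype in log2(CPM + 0.5) for the 8 genes (rows), red above and blue below the mean. Pck1 and G6pc have the widest deviations, from -1.10 to 1.33 and from -1.46 to 1.19, and Mlxipl stays within 0.11 of its mean.

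Of 28 gene pairs, 12 had an adjusted p below 0.05 by Pearson's r and 15 by Spearman's rho (two-sided exact permutation of animals within genotype, all arrangements, Benjamini-Hochberg over 28 pairs). The share of gene pairs in general that would pass was not tested, so these counts do not show co-variation particular to this set. By r with Pck1 among 11954 genes, G6pc ranked 89, Gk 165, Slc37a4 565 and Khk 845, so many other genes followed Pck1 more closely. Pck1 and G6pc, which bracket the path from oxaloacetate to glucose, had r = 0.90 and rho = 0.92 (adjusted p = 0.00292 and 0.00389, permutation test), and r = 0.92 without cKO animals 5 and 3, the 2 farthest from the median of Pck1. The same pair gave r = 0.98 within WT and 0.96 within cKO. Pck1 and Gk had r = 0.87 and rho = 0.92 (adjusted p = 0.00889 and 0.00713, permutation test), and r = 0.81 without the same 2 animals. Slc37a4 and Khk had the highest value of all pairs, r = 0.96 and rho = 0.88 (adjusted p = 0.00661 and 0.0166, permutation test), which fell to r = 0.79 without WT animals 2 and 4.

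The fructolytic pair Khk and Tkfc had r = 0.89 and rho = 0.84 (adjusted p = 0.0138 and 0.00389, permutation test). It rested largely on WT animals 2 and 4, since r was 0.46 without them, and within genotypes it was 0.93 in WT and 0.51 in cKO. Pck1 and Tkfc had r = 0.41 and rho = 0.67 (adjusted p = 0.333 and 0.0421, permutation test), so the pair was past the threshold by rank alone. The same held for Tkfc with Slc37a4 (rho = 0.73), with G6pc (0.76) and with Gk (0.77). Fbp1 and Slc37a4 (r = 0.83, rho = 0.75) were past it by r alone (adjusted p = 0.0214 and 0.0577, permutation test). None of the 7 pairs with Mlxipl was past the threshold by either measure, with r between -0.43 and 0.17. Leaving out WT animal 4 reduced the 12 pairs past the threshold by r to 5, and leaving out any other single animal gave 9 to 14.

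Deviations of the enterocyte marker sum went along with these. Relations with marker sums were chosen after the values had been seen, so their p-values are a description. Over the 10 animals it correlated with G6pc at r = 0.96 and rho = 0.96 (adjusted p = 0.00222 and 0.00444, permutation test over 32 relations of the 8 genes with 4 marker lists), and r was 0.94 without the 2 animals farthest from the median of the sum. The values were r = 0.95 and rho = 0.93 for Khk (adjusted p = 0.01 and 0.0137, permutation test; r = 0.85 without those 2 animals) and r = 0.95 and rho = 0.95 for Gk (adjusted p = 0.00296 and 0.00815, permutation test; 0.93 without them). Pck1 had r = 0.83 and rho = 0.94 (adjusted p = 0.00296 and 0.00444, permutation test; 0.93 without them), and Slc37a4 had r = 0.92 and rho = 0.92 (adjusted p = 0.0124 and 0.0107, permutation test; 0.74 without them). For Tkfc (r = 0.78), Fbp1 (r = 0.72) and Mlxipl (r = -0.28) the adjusted p was 0.0949, 0.126 and 0.5 (permutation test).

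**Figure D3:**
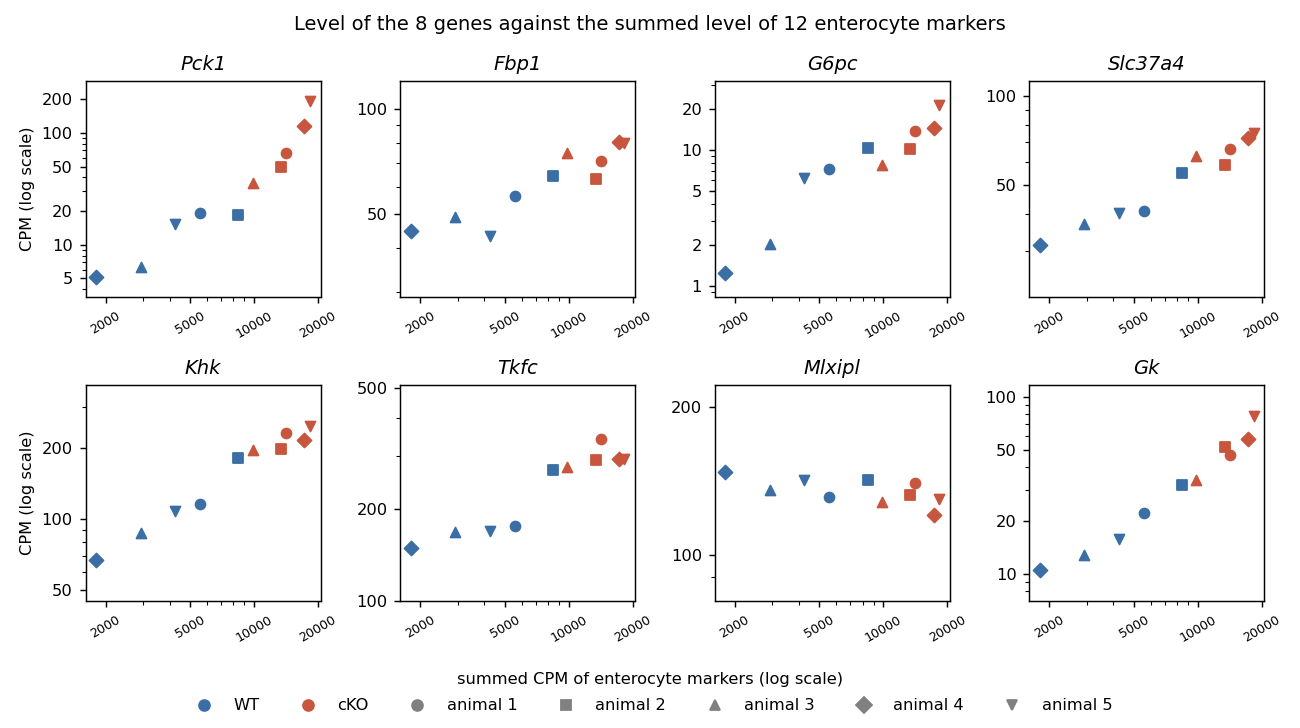
Level of each of the 8 genes in CPM against the summed CPM of 12 enterocyte markers, both on log axes, for 5 WT (blue) and 5 cKO (red) animals, with marker shapes for animal numbers. The sum separates the genotypes, with WT at 1807 to 8441 and cKO at 9846 to 18308 CPM, and Mlxipl is the gene with no upward course along it.

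Levels were then set against that sum, a ratio chosen after the values had been seen. Per 1000 CPM of enterocyte markers, Pck1 stood at 2.15 to 3.58 CPM in WT and 3.61 to 10.6 in cKO, so the groups were close but did not overlap. G6pc stood at 0.686 to 1.46 in WT and 0.760 to 1.16 in cKO, and Gk at 3.70 to 5.86 and 3.33 to 4.25, so both overlapped. Khk (20.8 to 37.3 in WT, 12.6 to 20.1 in cKO), Tkfc (31.5 to 83.0 and 16.0 to 28.1), Slc37a4 (6.52 to 17.4 and 4.09 to 6.39), Fbp1 (7.61 to 24.8 and 4.38 to 7.59) and Mlxipl (16.8 to 81.7 and 6.998 to 13.0) were lower in cKO on this scale, without overlap. The sum itself was higher in cKO, so a gene that rose less than the sum falls on this scale. Pck1 alone lay higher without overlap, but its strong rise was part of the choice, so nothing is read from this.

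The genes whose deviations followed those of Pck1 most closely, among 11954 tested genes that averaged 50 or more normalized counts, were Pdk4 (r = 0.98), Slc6a20b (0.98), Acadl (0.96), Plekhf1 (0.95) and Mgat1 (0.95). Pdk4 encodes a kinase that switches off pyruvate dehydrogenase, Slc6a20b an amino acid transporter, Acadl a dehydrogenase of fatty acid oxidation and Mgat1 a glycosyltransferase of the Golgi. Pdk4 ranged from 1.11 to 4.67 CPM in WT and from 6.78 to 38.6 CPM in cKO, with WT 4 and cKO 3 the lowest and cKO 5 the highest, as for Pck1, and it had a log2 fold change of 2.78 ± 0.60 (edgeR adjusted p = 0.0102). Of the 8 genes themselves, G6pc ranked 89 and Gk 165 by this measure. Slc37a4 ranked 565, Khk 845, Fbp1 1439, Tkfc 2341 and Mlxipl 7983.

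The other genes of these pathways were taken from 6 lists with 79 genes, of which 75 were tested, and 34 were higher and 7 lower in cKO at an edgeR adjusted p below 0.05. Over all tested genes 15.6% were higher and 12.7% lower, and the median was -0.03. The counts of each list below stand beside the same shares. The enterocyte marker sum was likewise higher in cKO without overlap, and its part in these results was not tested.

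Of the 7 other fructose genes 6 rose and 0 fell. The fructose carrier Slc2a5 (GLUT5) of the brush border rose from 35.3 to 107 CPM on average (log2 fold change 1.60 ± 0.39, adjusted p = 0.0164, edgeR), and the basolateral hexose carrier Slc2a2 (GLUT2) from 82.4 to 324 CPM (1.98 ± 0.47, adjusted p = 0.0146, edgeR). Neither overlapped between the genotypes. Slc2a7, a further hexose carrier of low level, rose by 1.99 ± 0.55 on the log2 scale (adjusted p = 0.0267, edgeR). Tpi1, shared with glycolysis, did not pass the threshold (0.24 ± 0.10, adjusted p = 0.0755, edgeR).

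**Figure D4:**
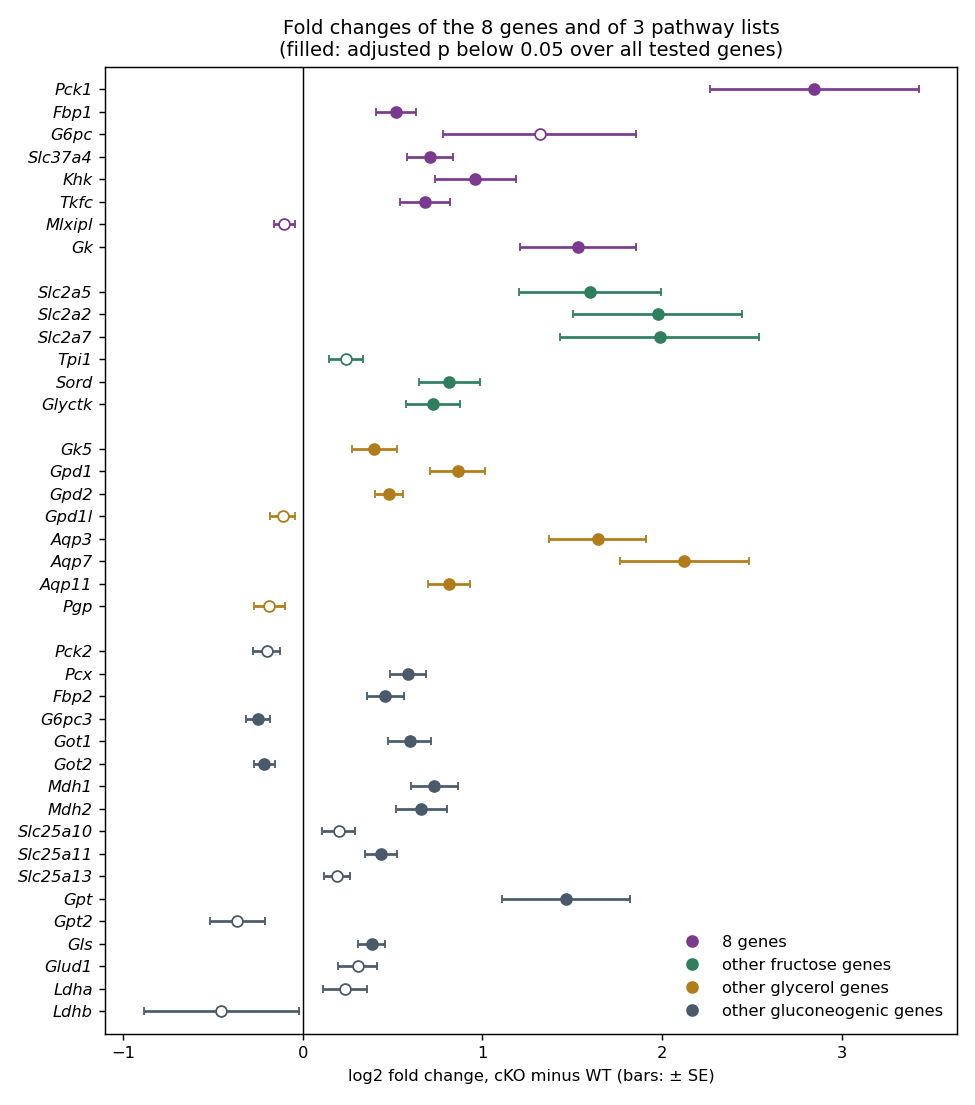
Log2 fold change (cKO minus WT) with its SE for the 8 genes and for tested members of 3 lists of other fructose, glycerol and gluconeogenic genes, with filled points where the adjusted p over all tested genes was below 0.05. The values run from 2.84 for Pck1 to -0.45 for Ldhb, and 5 of 6 fructose, 6 of 8 glycerol and 8 of 17 gluconeogenic genes plotted are filled to the right of 0.

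Of 8 other glycerol genes 6 rose and 0 fell, with a median of 0.65. The glycerol channels Aqp7 (2.12 ± 0.36, adjusted p = 0.00218, edgeR) and Aqp3 (1.64 ± 0.27, adjusted p = 0.00183, edgeR) changed most, from levels of only 0.569 to 3.27 CPM in WT. Gpd1, which interconverts glycerol phosphate and the triose phosphate that fructolysis also yields, rose by 0.86 ± 0.15 (adjusted p = 0.00292, edgeR), and Aqp11 by 0.81 ± 0.12 (adjusted p = 0.00102, edgeR).

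Of 17 other gluconeogenic genes tested 8 rose, 2 fell and 7 did not pass, with a median of 0.31, and G6pc2 had 0 counts in all 10 libraries. Gpt, the alanine aminotransferase, changed most (1.46 ± 0.36, adjusted p = 0.0156, edgeR), followed by the malate dehydrogenases Mdh1 (0.73 ± 0.13, adjusted p = 0.00242, edgeR) and Mdh2 (0.66 ± 0.14, adjusted p = 0.00607, edgeR) and the aspartate aminotransferase Got1 (0.59 ± 0.12, adjusted p = 0.00475, edgeR). Pyruvate carboxylase (Pcx), which supplies oxaloacetate to Pck1, rose from 16.3 ± 1.3 to 24.5 ± 3.4 CPM (0.59 ± 0.10, adjusted p = 0.00206, edgeR). Fbp2, the muscle isoenzyme of Fbp1, was named here after its values were seen. It also rose without overlap, from 189 to 259 CPM on average (0.46 ± 0.10, adjusted p = 0.00772, edgeR). Pck2, the mitochondrial carboxykinase, had 61.8 to 76.6 CPM in WT and 54.3 to 65.3 CPM in cKO and did not pass (-0.20 ± 0.08, adjusted p = 0.0648, edgeR). G6pc3, the widely expressed phosphatase, fell by 0.25 ± 0.07 on the log2 scale (adjusted p = 0.0152, edgeR), with all cKO animals between 38.4 and 43.5 CPM and all WT animals between 44.3 and 52.6 CPM, and Got2 fell by 0.21 ± 0.06 (adjusted p = 0.0189, edgeR). Without WT animals 3 and 4, which had the lowest enterocyte marker sums, neither fall was past the threshold, while 8 of the list were still higher.

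Among 11 tested partners and targets of ChREBP 3 rose, 2 fell and 6 did not pass, with a median of -0.19. Fructolytic genes, also among the known targets, are not in this list. Khk (0.96 ± 0.23) and Tkfc (0.68 ± 0.14) were chosen by name, and 6 of 7 other fructose genes rose. The counts of this list therefore do not describe the targets of ChREBP as a whole. The partner Mlx (0.26 ± 0.10, adjusted p = 0.0665, edgeR), the paralog Mlxip (-0.0017 ± 0.12, adjusted p = 0.993, edgeR) and the target Txnip (-0.19 ± 0.29, adjusted p = 0.65, edgeR) did not pass. Me1 (0.76 ± 0.13, adjusted p = 0.00185, edgeR), Pklr (0.72 ± 0.14, adjusted p = 0.00383, edgeR) and Elovl6 (0.47 ± 0.15, adjusted p = 0.0379, edgeR) rose, and Arrdc4 (-0.52 ± 0.12, adjusted p = 0.00872, edgeR) and Fasn (-0.51 ± 0.16, adjusted p = 0.0308, edgeR) fell. Of this list 4 genes were lower without WT animal 2 or WT animal 5, and 1 without any of WT 3, cKO 2, cKO 3 and cKO 4.

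The enzymes that oppose gluconeogenesis, the hexokinases, phosphofructokinases, their bifunctional regulators and Pkm, gave 3 higher, 1 lower and 7 not past the threshold of 11 tested, with a median of 0.24. Pfkfb4 (1.01 ± 0.20, adjusted p = 0.00558, edgeR), Pkm (0.51 ± 0.10, adjusted p = 0.00372, edgeR) and Pfkfb2 (0.30 ± 0.09, adjusted p = 0.026, edgeR) rose. Hk2, which phosphorylates glucose, fell from 46.1 to 77.7 CPM in WT to 35.7 to 47.1 CPM in cKO (-0.52 ± 0.13, adjusted p = 0.0115, edgeR). Of 21 regulators of gluconeogenic genes 8 rose, 2 fell and 11 did not pass, with a median of 0.06. Ppargc1a, the coactivator PGC-1alpha, rose from 18.2 to 43.7 CPM on average without overlap (1.26 ± 0.17, adjusted p = 0.000991, edgeR), Irs2 by 1.06 ± 0.16 (adjusted p = 0.00143, edgeR), Klf15 by 0.87 ± 0.25 (adjusted p = 0.0202, edgeR) and Nr0b2 by 0.70 ± 0.25 (adjusted p = 0.0493, edgeR). The immediate early gene Nr4a1 fell by 1.16 ± 0.32 (adjusted p = 0.0194, edgeR) and Crtc2 by 0.21 ± 0.07 (adjusted p = 0.0357, edgeR). The 8 regulators higher became 4 without WT 4 or cKO 5 and 5 without cKO 4, and the 2 lower became 0 without WT 4 and 1 without any of WT 1, WT 3, cKO 1, cKO 2, cKO 3 and cKO 5. The opposing enzymes had 2 lower without WT 2 or any 1 cKO animal. Without WT animals 3 and 4, Fasn, Elovl6, Hk2, Pfkfb2, Klf15, Nr0b2, Nr4a1 and Crtc2 were no longer past the threshold.

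Lists of other cell types and states stood as follows, beside 15.6% higher and 12.7% lower of all tested genes. Of the enterocyte markers 11 of 12 rose and 0 fell, led by Apoa4 (2.06 ± 0.53, adjusted p = 0.0198, edgeR), and 5 of 8 crypt progenitor markers fell, led by Ascl2 (-0.57 ± 0.17, adjusted p = 0.0284, edgeR), with sums of 5711 to 8752 CPM in WT and 4458 to 6257 CPM in cKO. Secretory markers gave 3 higher and 3 lower of 9, immune markers 0 and 1 of 11, stromal markers 0 and 2 of 10, and ileal markers 1 and 0 of 5. Liver and pancreas markers mark the other tissues known for these enzymes or lying near the jejunum. They gave 0 in either direction of 4 tested among 12 listed. Alb stayed between 0.517 and 1.82 CPM, with Fgb at 0 in every library. Several pancreatic genes were highest in WT animal 2, with 254 counts of Amy2a5, 87 of Pnlip and 52 of Cela2a. The other libraries had 0 to 106, 0 to 20 and 0 to 22 counts. Cela1 was highest in WT animal 5, at 255 counts. The part of such RNA in the values of WT animal 2 was not tested. The abundant member of that list was Cps1, at 2667 to 4264 CPM, which intestinal epithelium also expresses. Clock genes gave 5 higher and 0 lower of 14, with Dbp at 1.02 ± 0.15 (adjusted p = 0.00135, edgeR), and genes of the fasting response 2 and 0 of 7, namely Pdk4 and Cyp4a10 (1.62 ± 0.29, adjusted p = 0.00273, edgeR). The time of day of collection was not given in the sources used here, and the part of these states in the values of Pck1 and G6pc was not tested.

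The counts of these marker lists moved with single animals. Enterocyte markers higher numbered 4 without cKO 5, 6 without any of WT 3, WT 5 and cKO 4, and 7 without WT 1 or cKO 2, with 0 lower in each. The 5 crypt progenitor markers lower became 3 without any of WT 3, WT 4, cKO 1, cKO 3 and cKO 5. The 3 secretory markers higher became 0 without cKO 4 and 1 without any of WT 2, WT 3, WT 4, cKO 1 and cKO 3, and with library size as the only scaling there were 0. The 2 stromal markers lower became 5 without cKO 4 and 1 without any of WT 3, WT 4, WT 5, cKO 1, cKO 2, cKO 3 and cKO 5. Immune markers lower numbered 2 without cKO 4 or cKO 5. Ileal markers higher numbered 3 without WT 2 and 0 without any of WT 1, WT 3, WT 4, cKO 1 and cKO 5. Clock genes lower numbered 2 without WT 1 and 1 without WT 2. Without WT animals 3 and 4 together, 2 clock genes, 1 fasting gene and 0 secretory markers were higher, and 1 secretory and 0 stromal markers were lower.

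RSEM reports for each gene a length averaged over its annotated transcripts by their estimated abundance, so a change in it means another estimated mix of transcripts. TPM is computed from this length and was named in the choice of the genes. Lengths, and the limma threshold set beside them, are therefore also a description and no support. Fbp1 averaged 1353 to 1439 bases in WT and 1272 to 1289 bases in cKO, without overlap, and was past a limma threshold that 0.135% of 11860 genes passed. It has transcripts of 1479, 704 and 612 bases, of which the longest remained predominant by this average in both groups. In 7 of the 10 analyses without 1 animal it no longer passed that threshold, though its direction was the same in each.

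Khk moved the other way, from 1072 to 1166 bases in WT to 1204 to 1249 bases in cKO, again without overlap but not past that threshold. Its listed transcripts are 1583, 1257, 1087, 789 and 544 bases long, the last with a retained intron, and the known isoforms ketohexokinase A and C differ by an alternative exon of like size, which this average cannot tell apart. With the effective length of each library as an offset, the log2 fold change of Fbp1 was 0.68 and that of Khk 0.85, against 0.52 and 0.96 without it, so the order of the 2 genes was kept. G6pc and Tkfc have 1 listed transcript each, and the remaining members overlapped in length between the genotypes.

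**Figure D5:**
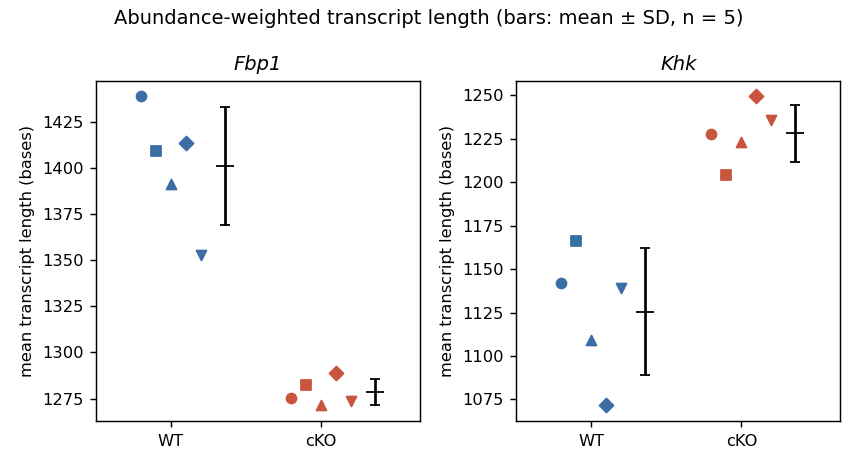
Abundance-weighted mean transcript length in bases of Fbp1 and Khk in 5 WT and 5 cKO animals (the axes do not start at 0), with black bars for mean ± SD. Fbp1 is at 1353 to 1439 bases in WT and 1272 to 1289 in cKO, and Khk at 1072 to 1166 and 1204 to 1249.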

How the data were processed

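The 8 genes, the lists and the tests were chosen with earlier results of these data known. The authors ran nf-core/rnaseq, with STAR for alignment and RSEM against the Ensembl annotation of GRCm38, and deposited for each library the expected count, TPM, FPKM, length and effective length of every gene, unfiltered and with expected counts not normalized between libraries. The strand setting was not given in the sources used here. The deposited expected counts were rounded and tested in edgeR 4.0.16 (R 4.3.3): filterByExpr (minimum count 10, minimum total 15), TMM, robust quasi-likelihood test of genotype, Benjamini-Hochberg over all tested genes, threshold 0.05. The model of the study, fitted with DESeq2, also had time as a factor, and these libraries hold 1 time point. The deposited TPM served for levels between genes, and the FPKM of the authors for an alternative. Lengths were analysed with limma 3.58.1. Alternatives were DESeq2 1.42.0 and those named in the closing section. Genes overlapping the 8 and copies of them (BLAST 2.17.0, at least 95% identity over 100 bases) came from GENCODE for GRCm38, which pairs gene identifiers and symbols, and promoters from RefSeq (GRCm38.p6). Genes without a symbol held 0.0193% of counts.

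Named genes were Arid3a, the 8 genes, up to 4 genes per list and direction with the largest fold change past the threshold, 11 genes linked directly to the 8, and the 5 genes most like Pck1. A gene that meets the rule is not reported here, though it stays in the counts over its list. Each library is 1 animal, so p-values measure the spread between these animals. At 26.4 to 29.9 counts per CPM, G6pc in WT animal 4 rested on 37 counts, and counting error matters for such values. Scripts were tested on simulated data.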

Additional observations from a re-analysis of the deposited data

Results flagged for a closer look

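Samples standing apart from their own group of 5 were looked for in the levels of Arid3a and the 8 genes and in the transcript lengths of the 6 genes with several transcripts, by the gap to the nearest animal as a share of the group's range, with a limit of 0.71. Of 30 groups tested 4 were over it, while chance gives about 1 in 20. For Tkfc, WT animal 2 stood above the other WT animals (269 CPM against 150 to 176, gap over range 0.782), and cKO animal 1 above the other cKO animals (342 CPM against 277 to 293, gap over range 0.750). The transcript length of Pck1 in WT animal 4 was 2411 bases against 2630 to 2661 in the other WT animals (gap over range 0.876), at 152 counts, the fewest of any library for this gene. That of Mlxipl in cKO animal 1 was 3059 bases against 2961 to 2965 in the other cKO animals (gap over range 0.957).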

How the results depend on the processing

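Each of the 8 genes kept its direction in 20 alternatives, and 6 or 7 were called higher in each. The choice of the genes used this contrast, so these calls are a description and no further support. Calls were gained for G6pc (limma on log2(TPM + 1), log2 fold change 1.13, and without WT replicate 2) and for Mlxipl, so that 1 of the 8 genes was called lower with library size only and 1 with limma on log2(TPM + 1), against 0. The number higher over all genes was 2298, and 1411 with limma on log2(TPM + 1). The number lower was 1869, 4030 with library size only and 1131 without WT replicate 4 (lowest of 1131 to 2112 over single animals left out). Of all calls 55.1% were higher, 27.7% with library size only and 33.8% with limma. Of the pathway lists, 7 genes were lower, 18 with library size only, with 5 to 12 over single animals left out (12 without WT replicate 2). Their 41 called genes kept their direction under RLE factors, library size only and limma. Without WT replicates 3 and 4 together, 1472 genes were higher and 671 lower, 27 and 1 pathway genes were called, and 6 of the 8 genes were still higher. The replicate numbers do not pair animals: correlations of deviations ran from -0.16 to 0.13, 1 of 5 over 0.1. With a replicate block, 1191 genes and 4 pathway genes were lower, and 6 of the 8 genes stayed higher. Co-varying pairs numbered 12 and from 5 (without WT replicate 4) to 14 with single animals left out. For transcript length, again as a description, 1 of the 8 genes passed, and 0 with a replicate block. With single animals left out it was 0 to 2, where Khk also passed without WT replicate 2. The cause of these shifts was not tested. Arid3a had too few counts for the filter of 10 counts in every sample.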

Other observations

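Among the 32 relations between the 8 genes and 4 marker sums, 2 outside the enterocyte list had an adjusted p below 0.05. The relations were chosen after the values had been seen, so their p-values are a description. The deviations of Mlxipl, the least variable of the 8 genes, went against those of the stromal marker sum, with r = -0.84 and rho = -0.90 over 10 animals (adjusted p = 0.0359 and 0.0107, permutation test within genotype) and r = -0.70 without the 2 animals farthest from the median of the sum. That sum, of collagens and other genes of mesenchymal and endothelial cells, ran from 24.5 to 105 CPM in WT and from 19.5 to 158 CPM in cKO. The deviations of Khk went against those of the crypt progenitor sum, with r = -0.79 and rho = -0.84 (adjusted p = 0.0444 and 0.0503, permutation test within genotype) and r = -0.64 without the 2 farthest animals. Most of the crypt progenitor sum was Olfm4, with 7113 of 8752 CPM in WT animal 3 and 3314 of 4458 CPM in cKO animal 5. For Pck1 and the immune marker sum r was 0.77 and rho 0.76 (adjusted p = 0.0803 and 0.0713, permutation test within genotype).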
